A study of Caenorhabditis elegans with 2 samples.

Results

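The genes described here are the 5 Meis and Pbx class homeobox genes of Caenorhabditis elegans that were listed by name: unc-62 and psa-3 of the Meis class, and ceh-20, ceh-40 and ceh-60 of the Pbx class. They are 5 of the 19973 nuclear protein-coding genes of the annotation. For each gene, every ChIP summit in the gene body and in the 10 kb on either side was taken. UNC-62 was immunoprecipitated in 2 biological replicates of whole animals, which form 1 group. The strain was OP600, with the unc119(ed3) allele and the transgene wgIs600, which holds unc-62 with a TY1, EGFP and FLAG tag at its C-terminus together with an unc119 marker. Both sexes were pooled. The antibody is labelled unc-62. The stage field reads dauer, while the experiment's description speaks of D4 worms, so the stage is not settled here. No untagged strain and no second stage was analysed here, and the comparisons are therefore among genes and between the replicates.

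Proteins of the Meis and Pbx classes belong to the TALE group of homeodomain proteins, named after a loop extension of a few amino acids in the homeodomain. A Meis protein and a Pbx protein can bind DNA together, and with a Hox protein they form complexes that select Hox target genes. In C. elegans, UNC-62 acts with CEH-20 in embryonic patterning and in the migration and fates of postembryonic cells. It also acts with CEH-60 in the intestine, where both are needed for yolk protein expression. CEH-40 has functions that overlap those of CEH-20. psa-3, which encodes a Meis-class protein, takes part in the asymmetric division of the tail T cell and is a target of the Hox protein NOB-1 and of CEH-20.

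The authors deposited 4 lists on build ce11. The pooled list, called on both replicates together, held 2155 regions, and each replicate list held 30000. All 3 of these include background by design. The list that the authors thresholded by the irreproducible discovery rate (IDR), called reproducible here, held 95 regions. Each region has a summit and the authors' signal value, an enrichment measure on a scale that is not stated, so that signals are compared here only within a list. A rank is 1 plus the number of regions of the same list with a higher signal. No pooled region had a q value under 0.05, and the lowest was 0.151, while the replicate lists held 177 and 134 nuclear regions under that threshold. Mitochondrial regions had the highest signal in the pooled list and in both replicate lists, and numbered 19, 24 and 2 in that order. Read depth is unknown from the files.

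The sequences under 5 of the summits are shown beside the motif counts given with the values below. They are read 5′ to 3′ on the plus strand of WBcel235, the assembly of ce11. The first pair are the only summits among the 14 pooled summits at these genes with the composite Pbx and Meis site TGATTGAC within 100 bp, and lie upstream of unc-62. The next pair are 30 bases in annotated 5′ UTR sequence of unc-62, at the reproducible summits with the highest signal in replicate 2 and in the pooled list. The last is the pooled summit 739 bp upstream of ceh-20, the nearer of its 2, which holds none of the motifs. Capitals mark TGATTGAC, TGATNNAT or GAGAGA on either strand.
unc-62 distal upstream, chrV:4489824-4489924: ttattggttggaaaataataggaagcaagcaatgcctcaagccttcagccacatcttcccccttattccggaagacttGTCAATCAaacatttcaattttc
unc-62 upstream, chrV:4491405-4491505: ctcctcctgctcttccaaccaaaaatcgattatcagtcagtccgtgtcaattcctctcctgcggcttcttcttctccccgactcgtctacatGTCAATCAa
unc-62 at the second group of transcript starts, chrV:4499627-4499656: aatcaATCGATCAacGAGAGAagaagaaga
unc-62 downstream of the last transcript start, chrV:4507967-4507996: tgGAGAGAgttggctggcaGAGAGAcagcc
ceh-20 upstream, chrIII:6979095-6979195: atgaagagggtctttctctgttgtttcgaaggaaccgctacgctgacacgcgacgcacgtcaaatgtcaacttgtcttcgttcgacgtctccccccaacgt

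The first question was how the 5 genes compare in the number of summits near them. The unc-62 window held 11 pooled summits, that of ceh-20 held 2 and that of ceh-40 held 1, while ceh-60 and psa-3 had 0. Thus 3 of the 5 genes had a pooled summit, where 34.7% of all 19973 nuclear protein-coding genes did. Reproducible summits lay at 1 of the 5, unc-62, which had 3, against 1.69% of all genes. The regions of 2 of these 3 overlap, with summits 215 bp apart. A pooled summit matched by a summit within 200 bp in both replicate lists was present at 3 of the 5 genes, against 28.1% of all genes. These were the same 3 genes that had a pooled summit. Over all genes, 5617 of the 6936 with a pooled summit had a matched one. The windows were not of equal length, from 21902 bp for ceh-20 to 33989 bp for unc-62. Per 10 kb, the pooled list held 3.24 summits at unc-62, 0.913 at ceh-20 and 0.442 at ceh-40. The mean over all genes was 0.213 and the median was 0. No gene exceeded unc-62 in count or in density, and 2062 genes had at least as many pooled summits as ceh-20 and 6936 at least as many as ceh-40. These are 10.3% of all genes for ceh-20 and 34.7% for ceh-40. Both densities are above the mean over all genes, but that mean includes the many genes with 0. In a window as long as that of ceh-40, 1 pooled summit is enough to exceed it. A count of 0, as at ceh-60 and psa-3, was found for 13037 genes. The pattern at unc-62 was known before these genes were chosen, so its place at the top is a description.

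**Figure D1:**
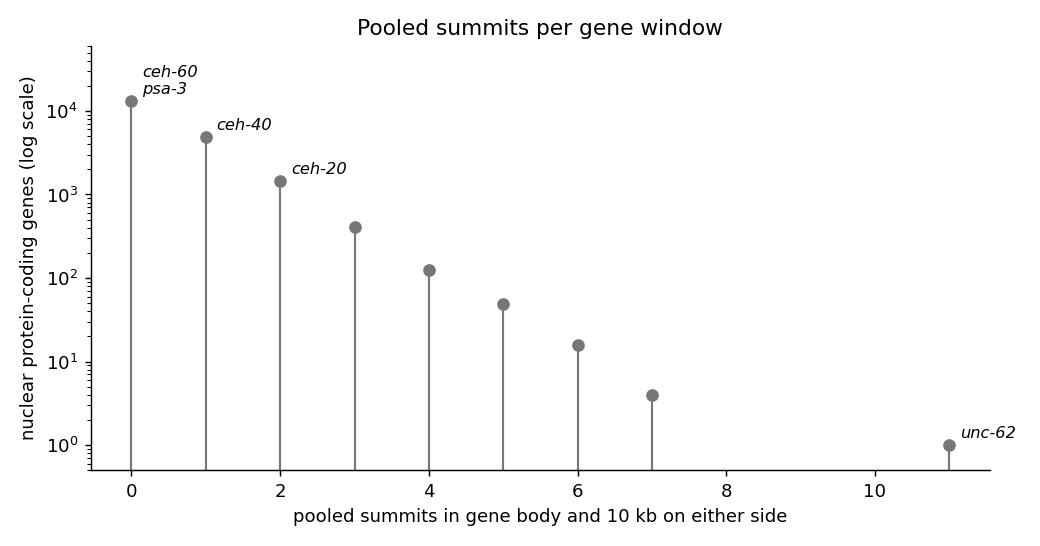
Number of nuclear protein-coding genes (vertical axis, log scale) by the number of pooled summits in the gene body and 10 kb on either side (horizontal axis), with the 5 homeobox genes named at their counts. unc-62 stands alone at 11, the next genes have 7, and ceh-60 and psa-3 are among the 13037 genes with 0.

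The genes most like unc-62 by this count were mnk-1, F25B5.5 and yif-1 with 7 pooled summits each, and piit-1 and abts-4 with 6. Among these, windows that shared a summit with unc-62 or with a gene already taken were left out. F25B5.5 came nearest to unc-62 per 10 kb, with 3.14 summits. Of its 7 pooled summits 6 were matched in both replicates, but none was reproducible and the highest ranked 123. The reproducible summits numbered 2 at mnk-1, 1 at piit-1 and 1 at abts-4. Besides unc-62, pqn-41 was the 1 gene with 3 reproducible summits in its window. The neighbours of unc-62 share part of its summits: T28F12.1 had 5 in its window, and exc-15 and sos-1 had 4 each.

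unc-62 (V 4497461 to 4511449, plus strand) encodes the immunoprecipitated protein itself. The annotation gives it 18 transcripts from 15 distinct starts, which fall into 5 groups when starts less than 1000 bp apart are joined, a grouping made after the values were seen. The first group lies at the gene start and holds 5 transcripts. The second, between 1866 and 2335 bp, holds 5 more. The third, between 3751 and 5120 bp, has 5 transcripts, the fourth, between 6500 and 7299 bp, has 2, and the last, at 9743 bp, has 1, T28F12.2d.10. Of the 11 pooled summits, 4 lay upstream of the gene, 6 inside it and 1 beyond its end, and 5 were within 1000 bp of a transcript start. Those 5 were at the second group, with 2, and at the last start, with 3. The first group, whose transcripts have the longest spans, had 0 pooled summits within 1000 bp, as had the third and the fourth. The replicate lists did hold summits within 1000 bp of these groups. The best ranks in replicates 1 and 2 were 22011 and 601 at the first group and 268 and 19348 at the third. At the fourth they were 3176 and 3709.

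The strongest signals lay downstream of the last transcript start. The pooled summit 10521 bp from the gene start (region V 4507810 to 4508153) had a signal of 82.4 and ranked 18, or first among nuclear regions. It was found in both replicates, with a signal of 38.6 and rank 23 in replicate 1 and a signal of 42.2 and rank 3 in replicate 2. Among nuclear regions alone it ranked second in each replicate. The neighbouring summit at 10736 bp (V 4508025 to 4508368) had a pooled signal of 61.0 and rank 22, and ranked 25 in replicate 1 and 28 in replicate 2. Among nuclear regions alone this neighbour ranked 4 in replicate 1 and 26 in replicate 2, so the replicates were less alike than the full ranks show. Both summits lie past the start of T28F12.2d.10, by 778 and 993 bp. They are in the 5′ UTR of 1 transcript, while in the other 17 transcripts the same sequence is intronic. Another summit in the 5′ UTR of 1 transcript and in introns of 17, at 12109 bp, was not reproducible. It had a pooled signal of 24.3 and ranks of 1318 and 157. The replicate summits lay 41 bp and 37 bp from the strongest pooled summit and 130 bp and 28 bp from its neighbour.

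The second group of starts held the remaining reproducible summit. This summit, 2181 bp from the gene start (V 4499470 to 4499813), had a pooled signal of 50.8 and rank 29. It was 154 bp past the start of T28F12.2c.2, in the 5′ UTR of 4 transcripts and in an intron of 5 others. In replicate 1 the signal was 21.8 and the rank 51, or 28 among nuclear regions alone. In replicate 2 the signal was 43.0 and the rank 2, the highest of all nuclear regions. The pooled summit at 2739 bp, intronic and 404 bp past the start of T28F12.2e.1, had a signal of 19.6. It was seen in replicate 1 at rank 209 and had no replicate 2 summit within 200 bp, the 1 case of this kind among the 11. The intronic summit at 9187 bp, 556 bp before the last start, had a pooled signal of 27.3, with rank 2364 in replicate 1 and 144 in replicate 2.

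**Figure D2:**
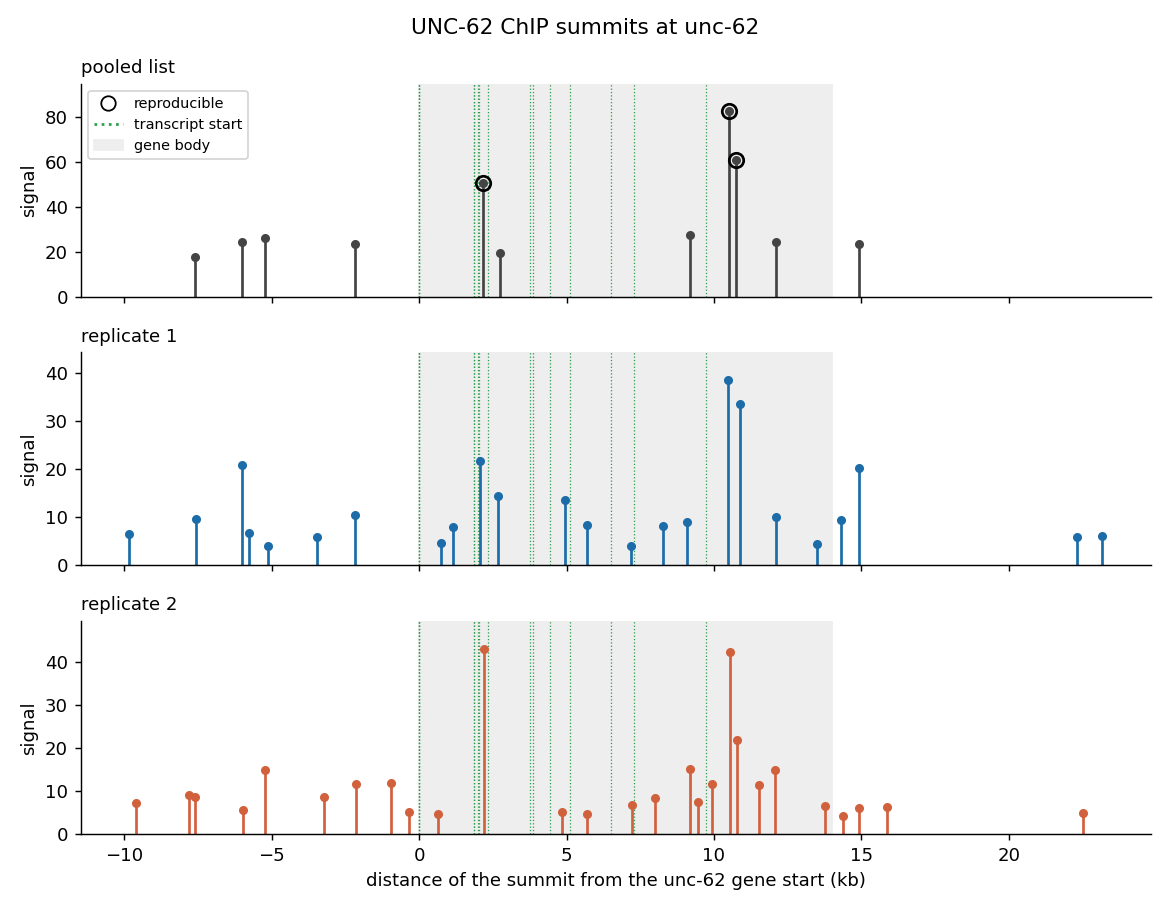
Signal (vertical axes, authors' units, not comparable between panels) of every summit in the unc-62 window by its distance from the gene start in kb, for the pooled list and each replicate. Circles mark the 3 reproducible summits, dotted lines the annotated transcript starts and grey the gene body; the tallest pooled lines are at 10521 and 10736 bp from the start, as are those matched to them in replicate 1, while in replicate 2 the tallest are those matched to 2181 and 10521 bp.

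Upstream of the gene, 4 pooled summits lay in intergenic sequence at 7587, 6006, 5217 and 2158 bp from its start. Their pooled signals were 17.6, 24.2, 26.0 and 23.2, and none was reproducible. At 6006 bp the signal was 20.9 in replicate 1, rank 57, and 5.71 in replicate 2, rank 14609. At 5217 bp it was the other way round, with a signal of 3.98 and rank 28594 in replicate 1 and 14.9 and rank 160 in replicate 2. Each of these summits thus rests mainly on 1 replicate, although both lists hold a summit within 200 bp. The summit at 2158 bp was more even, at ranks 1070 and 702, and so was that at 7587 bp, at 1666 and 3079. The last is nearer to the start of exc-15 (6415 bp) than to unc-62. Beyond the gene, the summit 931 bp past its end had a signal of 23.6 and ranks of 66 and 11700, and lay 653 bp upstream of T28F12.1.

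Over the 11 pooled summits of unc-62, 10 had a match in both replicates. The pooled list was called on these same replicates, and such matches were common. Of the 6936 genes with a pooled summit in their window, 5617 had 1 or more matched in both. Only the 3 reproducible summits, though, had a match in the first 1000 of both replicates. For 7 others the match in 1 replicate alone was in the first 1000, and for 1, at 7587 bp, in neither. Among the first 1000 regions of each replicate by signal, the unc-62 window held 7 summits of replicate 1 and 10 of replicate 2, and 3 of each had a match among the first 1000 of the other. In the whole lists the window held 24 summits of replicate 1 and 27 of replicate 2, which is 7.06 and 7.94 per 10 kb. The medians over all genes were 2.89 and 2.93. Of the 24, 16 had a replicate 2 summit within 200 bp, or 66.7%, and over all nuclear summits of replicate 1 the share was 23.1%. Of the 27, 16 had a match, or 59.3%, against 23.2%. Closer spacing of summits raises such a share by itself, and its part in the difference was not tested. At q values under 0.05 the window held 5 summits of replicate 1 and 4 of replicate 2.

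The block of high ranks ended close to the gene. The first-1000 summits of replicate 1 ran from 6006 bp upstream to 14922 bp downstream of the gene start, and those of replicate 2 from 5217 bp upstream to 12057 bp downstream. Outside the window, the nearest first-1000 summits of replicate 1 on the chromosome were 310560 bp upstream and 139147 bp downstream of the start, and those of replicate 2 were 599005 bp upstream and 238204 bp downstream. In the window they amounted to 2.06 and 2.94 per 10 kb, against 0.0973 and 0.0995 over the nuclear genome. The genes most like unc-62 by pooled count also held several such summits in their windows. In replicates 1 and 2 these numbered 6 and 4 at mnk-1, 4 and 4 at piit-1, and 3 and 3 at F25B5.5. At yif-1 they were 2 and 4, and at abts-4 3 and 2. The excess over the genome is thus not particular to unc-62. The strain carries the tagged unc-62 transgene besides the chromosomal gene, and the labels do not give how far its sequence extends. Reads from either copy would be placed at the same coordinates, so the signal of the chromosomal gene and that of the transgene cannot be told apart in these lists. At unc-119, the other gene named in the transgene, the window held 0 pooled summits, and the best ranks were 2024 in replicate 1 and 1221 in replicate 2. Whether the marker in the transgene has the sequence of the chromosomal unc-119 is not given in the labels.

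**Figure D3:**
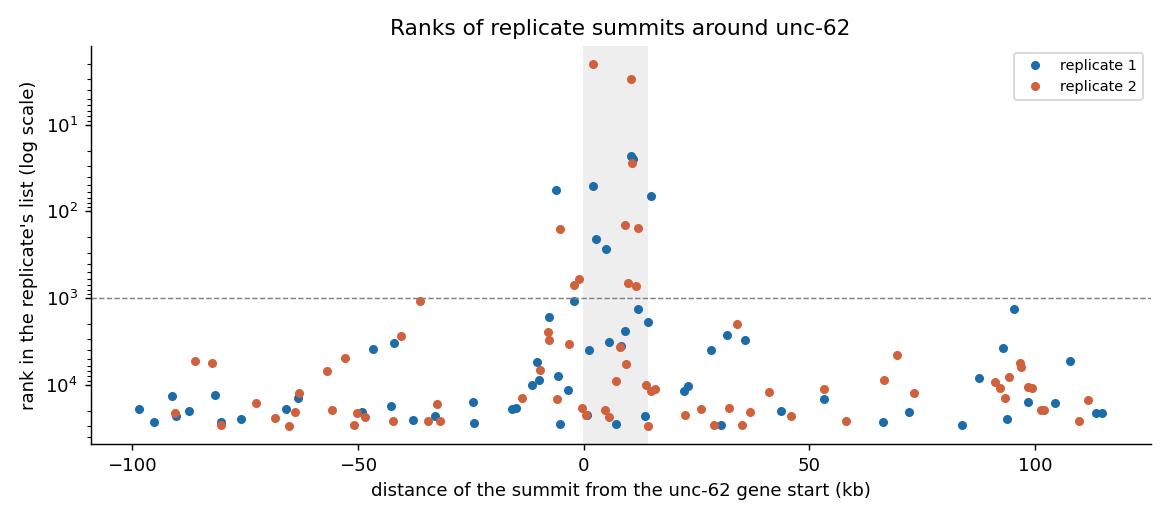
Rank of each replicate summit (vertical axis, log scale, best ranks at the top) by distance from the unc-62 gene start in kb, with the gene body in grey and a dashed line at rank 1000. Only summits between 6006 bp upstream and 14922 bp downstream of the start lie above the line in the range shown.

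Of the Pbx class genes, ceh-20 had the most pooled summits, while the whole replicate lists gave 8 for both ceh-20 and ceh-40 in replicate 1 and more for ceh-60, 10, than for ceh-20, 9, in replicate 2. ceh-20 (III 6979884 to 6981785, plus strand) encodes the main Pbx partner of UNC-62 in development. Its pooled summit 739 bp upstream of the single annotated start (III 6978973 to 6979316) had a signal of 24.6 and rank 203. It was 1 bp from a replicate 1 summit with a signal of 13.03 and rank 340, and 22 bp from a replicate 2 summit with a signal of 10.7 and rank 1069. This was the best rank in the ceh-20 window in replicate 2. A second summit, 7795 bp upstream of ceh-20 (III 6971917 to 6972260), had a pooled signal of 26.4, with 14.01 and rank 238 in replicate 1 and 6.996 and rank 7781 in replicate 2. It lay 164 bp upstream of rfc-4, which encodes a subunit of replication factor C, and is thus nearer to that gene. The q values of both in the pooled list were 0.205 and 0.192. Of the 8 and 9 replicate summits in the ceh-20 window, 3 of each were matched. Among as many top regions as the pooled list holds, replicate 2 alone gave 1 summit at ceh-20, and replicate 1 alone gave 0 at ceh-40.

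The 1 pooled summit in the window of ceh-40 (X 12318126 to 12320777, minus strand) lay 3589 bp upstream of its start in an intron of srd-40, a serpentine receptor gene, with a signal of 17.0 and rank 1298. The replicates gave it near-equal ranks, 6437 and 6397. The best rank in the window was in replicate 2, at 780, for a summit 1229 bp upstream of ceh-40 in coding sequence of F17A2.13, without a match in replicate 1 or in the pooled list. A replicate 1 summit at rank 6207 lay 46 bp past the start of ceh-40 and had no replicate 2 match. At ceh-60 (X 6522596 to 6530146, minus strand) the best rank was 11593 in replicate 1, 43 bp upstream of a start of ilys-5. In replicate 2 it was 2691, in an intron of ilys-5, which belongs to a lysozyme family. Within the ceh-60 gene itself, the best summit was intronic, 5143 bp past its start, at rank 4741 of replicate 2. Only 1 summit of each replicate in the ceh-60 window matched the other.

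psa-3 (X 15407931 to 15419298, plus strand), the other Meis-class gene, had 4 annotated transcripts and 0 pooled summits in a window of 31368 bp. No replicate 1 summit lay in the gene body. The best replicate 1 rank was 5363, 15528 bp from the gene start in coding sequence of F39D8.3, which lies beyond psa-3. In replicate 2 the best ranks were 1377, 16 bp upstream of a start of F39D8.3, and 1501, in an intron of psa-3 5695 bp from its start. The intronic summit had a signal of 10.1, lay 5 bp upstream of a start of pqn-36 and had no replicate 1 match. Among as many top regions of replicate 2 alone as the pooled list holds, psa-3 had these 2 summits, and in replicate 1 alone it had 0. The summit at rank 1377 matched a replicate 1 summit at rank 8384, the 1 match in this window. The replicate lists held 1.28 and 1.91 summits per 10 kb at psa-3, the lowest densities among the 5 genes and below the medians of 2.89 and 2.93 over all genes.

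**Figure D4:**
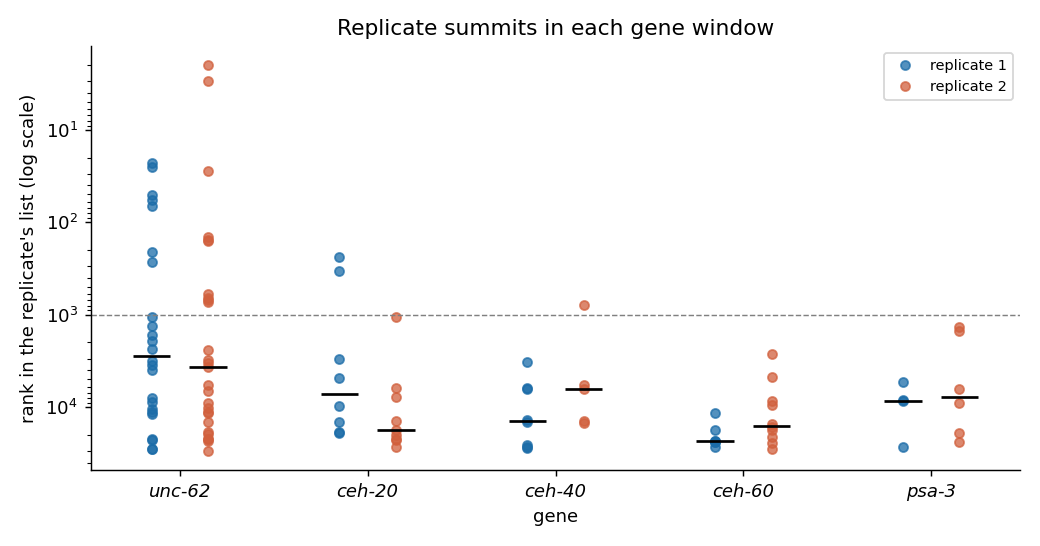
Rank of every replicate summit in the window of each gene (vertical axis, log scale, best ranks at the top), with black bars at the medians and a dashed line at rank 1000. Only unc-62 has ranks above 200; ceh-20 passes rank 1000 in replicate 1 alone and ceh-40 in replicate 2 alone.

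By the strongest summit in their windows, the genes had the same order in both replicates except for ceh-20 and ceh-40. In replicate 1 the highest signals were 38.6 at unc-62, 14.01 at ceh-20, 8.38 at ceh-40, 7.46 at psa-3 and 5.96 at ceh-60. In replicate 2 they were 43.0 at unc-62, 11.3 at ceh-40, 10.7 at ceh-20, 10.2 at psa-3 and 8.97 at ceh-60. Replicate 2 thus set ceh-40 before ceh-20, which replicate 1 did not, and the difference between ceh-40, ceh-20 and psa-3 in replicate 2 spans about 1 signal unit. With the threshold at the first 1000, 2 of the 5 genes had a summit in replicate 1, unc-62 and ceh-20, against 18.6% of all genes. In replicate 2 it was also 2 of 5, unc-62 and ceh-40, against 19.2%. Over the 2 replicates, only unc-62 was in both. In both replicates the psa-3 window came after those of ceh-20 and ceh-40, and that of ceh-60 came last. This is an order of windows. Outside unc-62, only the strongest replicate 2 summit of ceh-20 was nearest to a start of the gene itself. The others were nearest to rfc-4 at ceh-20 in replicate 1, and to xtr-2 and F17A2.13 at ceh-40 in replicates 1 and 2. At psa-3 they were nearest to F39D8.3 and at ceh-60 to ilys-5.

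Short motifs were looked for within 100 bp of the 14 pooled summits, on both strands. The Pbx and Meis composite TGATTGAC was present at 2 of 14, the summits 7587 and 6006 bp upstream of unc-62 shown above, and at 1.12% of all 2136 nuclear pooled summits and 0.566% of all nuclear windows of the same width. The site at 6006 bp had rank 57 in replicate 1 and 14609 in replicate 2, and that at 7587 bp ranks of 1666 and 3079, so neither is strong in both. The Meis core TGACAG was at 2 of 14, the unc-62 summits at 2181 and 9187 bp, against 8.66% of pooled summits and 6.77% of windows. It was at 0 of 14 within 50 bp. The Pbx and Hox site TGATNNAT was at 4 of 14, against 16.4% and 15.4%. The repeat GAGAGA was at 4 of 14, against 22.3% and 9.99%. Those were the 3 reproducible unc-62 summits, with 5 matches at the strongest, of which the 30 bases shown hold 2, and the ceh-20 summit near rfc-4. The ceh-20 summit 739 bp upstream of its start held none of the 4 motifs. A match is a description of the letters and not of a bound site.

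Genes that act with these proteins were counted in the same way. Of the 6 Hox genes, partners of UNC-62 and CEH-20, 3 had a pooled summit, where 34.7% of all genes did (ceh-13 with 2, lin-39 with 2 and mab-5 with 1), and egl-5, php-3 and nob-1 had 0. The strongest, 592 bp upstream of ceh-13, had a signal of 28.7 and rank 120. It was at rank 18 in replicate 2 and had no match in replicate 1. Of the 6 vitellogenin genes, which encode yolk proteins, 3 had a pooled summit, against the same 34.7%: vit-1, vit-4 and vit-6 had 1 each, with signals between 16.5 and 17.1. All lay beyond the gene ends, at 9306, 9615 and 12289 bp downstream of the gene starts in that order. Their ranks in replicates 1 and 2 were 2166 and 20172 at vit-1, 12789 and 847 at vit-4, and 23724 and 14158 at vit-6. Of the regulators of psa-3, sys-1, a beta-catenin, had 2, the higher at a signal of 23.3, and pop-1, a TCF factor, had 0. The TALE gene irx-1 and pqm-1, a transcription factor gene, had 0. Reproducible summits were at 0 of these 16 genes, where 1.69% of all genes had one. The median number of pooled summits per gene was 0.5 in the Hox list, 0.5 in the vitellogenin list and 1 in the 5 Meis and Pbx genes, against 0 over all genes.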

How the data were processed

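The files are region lists in narrowPeak format on build ce11, per the deposited file lists; the same lists on ce10 were not used here, since no gene annotation of that build was used and coordinates were not converted. The deposited signal (column 7) is the authors' enrichment value per region and the deposited −log10 q value (column 9) is theirs too. Per the deposited file lists, the pooled list derives from the alignments of both replicates and each replicate list from its own, together with 1 further file from which the control-normalized tracks also derive; that file was not analysed here. Neither aligner nor peak caller is named in these sources. Per the labels, sonication fragmented the chromatin.

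Summits were read as region start plus summit offset, 1-based. Genes came from Ensembl release 115 and sequence from RefSeq, both WBcel235; region ends lay within its chromosome lengths. The members, the lists and the rules were chosen with earlier results of these data known. Genes named besides the members and lists were those with the nearest start to a pooled summit and the 5 most like unc-62 by count; those at replicate summits, pqn-41 and the neighbours of unc-62 were named after their values were seen. Windows, matching and motif counts were tested on simulated data. With 1 group there was no test, and the replicates are given side by side. Python 3.11.15, numpy 2.4.6, pandas 2.3.3 and matplotlib 3.10.9 were used. Alternatives changed the flank, the rank limit, how summits were matched, the distance to a start and the motif window, and left out each replicate. Depth is unknown, so no counting interval could be given.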

Additional observations from a re-analysis of the deposited data

How the results depend on the processing

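The order with unc-62 first held in every alternative for counts. Without replicate 1 the unc-62 window held 10 summits and without replicate 2 it held 11, each among as many top regions as the pooled list has; for the other 4 genes summed these were 4 and 2. In the gene body alone, counts fell: 6 pooled and 5 matched summits at unc-62, and 0 pooled, 0 matched and 0 first-1000 summits of either replicate at the other 4 genes. With 20000 bp on either side the other 4 genes had 5 pooled summits and 2 in the first 1000 of replicate 2, and with 5000 bp 1 in that of replicate 1. Matching within the first 5000 regions left 1 matched summit there. At unc-62, 11 summits were in the first 2000 of replicate 1 and 6 in the first 500 of replicate 2; at the other 4 genes replicate 2 had 4 and 0. Within 500 bp of an unc-62 start lay 2 pooled summits. TGACAG was at 0 summits within 50 bp and 4 within 250 bp, and TGATNNAT at 2 and 7. Of these summary counts, 45 other alternative values were within 1.5 times those reported. Of the alternative counts for ceh-20, ceh-40, ceh-60 and psa-3 singly, 87 were within 1.5 times and 21 were not; ceh-40, for example, had 0 of its 1 pooled summit in the first 500 regions. The cause was not tested where a value moved. Depth is unknown, so no limit on missed summits can be set, and the first-1000 counts of 0 to 2 at the other genes are too small to order them.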
